A study of Mus musculus with 18 samples.

Results

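The transcription factor p53 (gene Trp53) and 9 genes that it controls or that control it were followed across 3 lines derived from P19, embryonic carcinoma cells of the mouse. The genes were taken by symbol from the table of transcript abundance, and all 10 were found among its 55450 genes: Trp53, Mdm2, Mdm4, Cdkn1a, Ccng1, Trp53inp1, Zmat3, Phlda3, Sesn1 and Aen. Poly(A) mRNA was sequenced in 6 samples of each line and given as TPM, an abundance scaled per transcript length and to a fixed total in every sample. WT cells carried both intact Dicer1 alleles, labelled Dicer (+/+). HetKO cells, labelled Dicer (+/-), carried a frameshift truncation on 1 allele, made by CRISPR, and are the control for the reduced dose of Dicer. HM cells, labelled Dicer (HM/-), were made from HetKO cells and so carry the same truncated allele, with the RNase IIIb hotspot mutation E1797G on the remaining allele. No agent was applied and no time course was taken. Each genotype was 1 line, and only HetKO and HM were edited. The genotype therefore cannot be told apart from the editing and history of that line, and HM passed through a further round of editing after HetKO. No source used here says that the samples of a line were separate cultures, so p-values measure the spread between these samples.

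In unstressed cells p53 protein is kept low by Mdm2, a ubiquitin ligase that marks it for degradation, and by Mdm4, a relative of Mdm2 that covers its activation domain. After DNA damage or other stress p53 is stabilized and binds pairs of 10-base half-sites near its targets, which slow the cell cycle (Cdkn1a), promote cell death or repair, and raise Mdm2 in a negative feedback loop. Because p53 is controlled largely through its protein, the mRNA of Trp53 does not give the activity of p53.

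To show where the targets could be bound, the p53 half-site decamer was searched on both strands of the windows from 250 bases before to 50 bases after each RefSeq start site (GRCm38.p6), which were found for 8 of the 10 genes. Of 32851 windows in the genome, 8.36% held an exact half-site and 2.24% held a full site, defined as 2 half-sites up to 10 bases apart with at most 1 mismatch each. Cdkn1a and Ccng1 held a full site, in both before the start site. They are printed 5′ to 3′ on the strand of the gene, without a spacer between the half-sites and with 1 mismatch to the motif in each full site. Exact half-sites of Mdm2, Aen, Sesn1 and Trp53 itself are below them.
Cdkn1a full site, chr17:29090928-29090947, plus strand: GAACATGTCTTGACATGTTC
Ccng1 full site, chr11:40755462-40755481, minus strand: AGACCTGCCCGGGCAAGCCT
Mdm2 half-site, chr10:117710935-117710944, minus strand: GAACTTGCCT
Aen half-site, chr7:78895937-78895946, plus strand: GGGCTTGTCC
Sesn1 half-site, chr10:41887266-41887275, plus strand: AAGCTTGTTT
Trp53 half-site, chr11:69580284-69580293, plus strand: GGACTTGCCC
The Cdkn1a full site began 51 bases before the start site of its window, and the Ccng1 site began 195 bases before its own. That Cdkn1a window held another half-site, GGACTAGCTT. The windows of further start sites of Cdkn1a (chr17:29093519-29093818) and Sesn1 (chr10:41810324-41810623) held none, as did those of Mdm4 and Phlda3. A match is a description of the letters in these windows and not a measure of binding, and p53 binding outside them was not analysed here.

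Dicer1, the edited gene, was measured at 52.3 ± 2.09 TPM in WT, 48.0 ± 4.1 TPM in HetKO and 40.3 ± 3.18 TPM in HM cells (mean ± SD, n = 6 in each line, as throughout). It was lower in HM than in WT by limma (log2 fold change -0.37, adjusted p = 0.000251) and lower in HM than in HetKO (-0.25, adjusted p = 0.0216). HetKO against WT did not pass (-0.12, adjusted p = 0.207). These values come from whole-gene TPM and do not read the mutation itself. The samples of HetKO and of HM formed 3 alike pairs: the log2 values of abundant genes differed with a robust SD of at most 0.105 within a pair and at least 0.164 otherwise. WT samples separated less, with replicates 1 and 4 (0.0746) apart from the other 4, which differed from each other by 0.0493 to 0.0939, so the WT pairs used below hold no clear boundary. HetKO replicates 2 and 5 were such a pair. Their values lay outside the range of the other 4 HetKO samples for 59.2% of 13654 genes, so the comparisons with HetKO were also fitted without them. The 7 markers of embryonal carcinoma cells summed to between 2801 and 3676 TPM in the 18 samples, with Pou5f1 near 2088 TPM in WT. Of 10 markers of other cell types, 4 in WT, 5 in HetKO and 6 in HM had a mean under 1 TPM, and their sum ran from 37.8 to 43.6 TPM in WT, from 40.1 to 122 TPM in HetKO and from 34.8 to 67.1 TPM in HM. The highest of them was T (brachyury), a mesoderm factor, at 110 and 66.2 TPM in HetKO replicates 2 and 5 against at most 9.13 TPM in the other 4. T was also higher in HM than in WT (24.2 and 5.83 TPM, log2 fold change 1.80, adjusted p = 0.000418, without overlap). Of the other markers, Thy1 (-0.43), Col1a2 (-0.80), Gata6 (-0.83) and Sall4 (-1.83) were lower and Utf1 (0.81) and Lin28a (0.27) higher in HM than in WT, while Pou5f1 was not called (-0.03). Gata6 averaged 1.88 TPM in WT and 0.597 TPM in HM. It could pass the filter of 1 TPM (below) only through WT, so it had to differ. In HetKO against WT, of the embryonal carcinoma markers Sall4 was higher (0.84), Utf1 (-0.54) and Zfp42 (-1.02) lower, and the others not called. In HM against HetKO, Lin28a (0.39), Utf1 (1.35) and Zfp42 (1.62) were higher, Sall4 (-2.67) lower, and the others not called. Zfp42, at 0.307 TPM in HetKO, passed the filter there only through WT or HM, so it had to differ. The part of these markers in the results was not tested.

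Trp53 mRNA was scarce. Its mean of 1.17 TPM over all 18 samples was above that of only 2.57% of the 13955 genes that averaged 1 TPM or more. Cdkn1a (2.39 TPM) and Phlda3 (2.97 TPM) were also low, above 13.6% and 16.9% of those genes. Trp53inp1 (15.7 TPM), Zmat3 (16.4 TPM) and Ccng1 (17.7 TPM) lay near the middle. Sesn1 (28.5 TPM), Aen (41.4 TPM), Mdm2 (43.3 TPM) and Mdm4 (46.4 TPM) lay in the upper part, Mdm4 above 76.5% of those genes. The restrainers of p53 were therefore the most abundant mRNAs of the 10, and p53 itself the least.

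Compared with WT, HM cells had less mRNA for Trp53, Mdm4, Trp53inp1, Sesn1 and Zmat3 and more for Aen. Mdm2, Cdkn1a, Ccng1 and Phlda3 did not pass the test. The call rule was an adjusted p under 0.05 in limma on log2(TPM + 1), over every gene averaging 1 TPM or more in the samples compared. By this rule 6 of the 10 genes were called in HM against WT, where 51.4% of the 14043 genes tested were called, 32.0% as lower and 19.4% as higher. Values of HM and WT did not overlap for these 6 genes, which was so for 28.5% of genes tested. Trp53, among the 6, could pass the filter only through WT (below), which leaves 5 of 9. The share of called genes among the 10 was near that of the background. Their median log2 fold change was -0.34, beside -0.09 over all genes tested. Centring each sample on its median moves all genes alike, so it cannot change the gap between these medians. It moved the median of all genes up by 0.18 to 0.08, with that of the 10 still 0.25 below. Quantile normalization can change that gap and gave -0.2, beside -0.25 before. In HetKO against WT, 3 of the 10 were called (Trp53, Mdm2 and Mdm4), all lower and again with Trp53 among them, where 10.2% of 13999 genes were called, 6.44% as lower and 3.71% as higher. Only Trp53 had no overlap of HetKO and WT values, which was so for 8.21% of genes tested. In HM against HetKO, 4 of the 9 that could be tested were called, 3 lower and 1 higher, where 34.6% of 13762 genes were called, 20.6% lower and 14.0% higher. No test of these counts against the background was made. The comparisons share samples pairwise and are not independent of each other.

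Trp53 (ENSMUSG00000059552.13, chr11:69580359-69591873, plus strand, GRCm38) encodes p53. In WT its lowest, median and highest values were 1.56, 2.04 and 2.6 TPM. In HetKO they were 0.24, 1.04 and 1.55 TPM, and in HM 0.1, 0.64 and 1.02 TPM. No HetKO or HM sample reached the lowest WT sample, whereas HetKO and HM overlapped. The mean fell from 2.01 ± 0.38 TPM in WT to 0.923 ± 0.523 TPM in HetKO and 0.565 ± 0.356 TPM in HM. In HM against WT the log2 fold change was -0.97 (SE 0.17, adjusted p = 0.000499, limma), a ratio of means of 0.281. For HetKO against WT it was -0.69 (SE 0.19, adjusted p = 0.039), a ratio of 0.459. At this level the added 1 TPM makes the log2 value understate the change. Trp53 passed the filter of 1 TPM through its WT level alone, so it had to differ, and it was not among the genes tested in HM against HetKO. A 2-sided exact permutation test over 924 divisions of the 12 values into groups of 6 gave p = 0.00216 for HM against WT. The same exact permutation test gave p = 0.00216 for HetKO against WT, again the smallest p that these 924 divisions allow. For HM against HetKO the exact permutation test gave p = 0.227 (difference -0.28 on the log2(TPM + 1) scale). This test counts samples of an alike pair as separate, so its p-values may be too small. Because Trp53 had to differ from WT, the permutation results against WT add no separate support. With means of alike pairs as replicates, limma gave an adjusted p of 0.0323 for HM against WT and 0.457 for HetKO against WT. The HetKO call was lost without replicates 2 and 5, at 0.35 and 0.24 TPM: then the log2 fold change was -0.43 (adjusted p = 0.0797). Its pseudogene Trp53-ps was listed at no more than 0.08 TPM in any sample, and how reads that match both were assigned was not tested. With bulk samples, fewer cells that express a gene and less RNA per cell cannot be told apart.

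Of the restrainers of p53, Mdm4 fell stepwise over the lines while Mdm2 moved little. Mdm4 (ENSMUSG00000054387.13, chr1:132959484-133030561, minus strand) lay between 54.4 and 68.4 TPM in WT with a median of 60.7 TPM. In HetKO the lowest, median and highest values were 38.2, 46.5 and 55.3 TPM, and in HM they were 24.6, 29.6 and 40.4 TPM. All HM samples were below all WT samples, and neighbouring lines overlapped only at their edges. Against WT the log2 fold change was -0.96 (SE 0.12, adjusted p = 6.4e-05) in HM and -0.36 (SE 0.09, adjusted p = 0.0235) in HetKO, and HM lay below HetKO by -0.60 (SE 0.14, adjusted p = 0.00622). Without HetKO replicates 2 and 5 the HetKO difference from WT no longer passed (-0.26, adjusted p = 0.0619). Within HM, replicates 4 to 6 (24.6 to 26.2 TPM) were lower than replicates 1 to 3 (33.0 to 40.4 TPM). A pseudogene on the opposite strand within Mdm4, Gm29257, was at most 1.15 TPM.

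Mdm2 (ENSMUSG00000020184.15, chr10:117688875-117710758, minus strand), itself a p53 target, had medians of 46.3 TPM in WT, 38.5 TPM in HetKO and 44.0 TPM in HM. Its range was 42.5 to 51.4 TPM in WT, 35.2 to 43.6 TPM in HetKO and 38.5 to 51.0 TPM in HM, so all lines overlapped. HM did not differ from WT by the test (-0.05, SE 0.07, adjusted p = 0.565). HetKO was lower than WT (-0.25, SE 0.07, adjusted p = 0.036), and without replicates 2 and 5, which lay within the range of the others, it was -0.22 and did not pass (adjusted p = 0.0995). HM against HetKO did not pass (0.19, SE 0.08, adjusted p = 0.0801) but passed with samples centred on their median (0.31, adjusted p = 0.0156).

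Cdkn1a (ENSMUSG00000023067.14, chr17:29090976-29100727, plus strand) encodes p21, the inhibitor of cyclin-dependent kinases through which p53 arrests the cell cycle. WT samples lay between 1.53 and 2.35 TPM with a median of 1.91 TPM, and HM samples between 1.3 and 3.02 TPM with a median of 1.99 TPM. These ranges overlapped, and HM did not differ from WT by the test (0.05, SE 0.16, adjusted p = 0.816). The HetKO samples were 1.2, 7.38, 2.01, 1.06, 5.69 and 1.86 TPM for replicates 1 to 6. Replicates 2 and 5 were above every other sample of the study, the other 4 HetKO samples were within or below the HM range, and the comparison with WT did not pass (0.31, SE 0.32, adjusted p = 0.544). Without the pair the HetKO value turned to the other side of WT but did not pass either (-0.21, adjusted p = 0.432). Against HetKO, HM was at -0.27 (SE 0.34, adjusted p = 0.567), and at 0.26 (adjusted p = 0.3) without the pair.

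Ccng1 (ENSMUSG00000020326.7, chr11:40748552-40755311, minus strand) encodes cyclin G1, which recruits a phosphatase to Mdm2. Its lowest, median and highest values were 16.9, 18.5 and 27.2 TPM in WT, 10.2, 19.4 and 21.4 TPM in HetKO and 11.2, 16.5 and 21.4 TPM in HM. The lines overlapped, and none of the 3 comparisons passed, with HM against WT at -0.35 (SE 0.16, adjusted p = 0.0867). In HetKO, replicates 2 and 5 (10.2 and 10.8 TPM) lay apart from the other 4 (18.9 to 21.4 TPM).

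Among the targets tied to cell death, Trp53inp1 fell the most of the 10 genes and Aen was the only one that rose. Trp53inp1 (ENSMUSG00000028211.11, chr4:11156431-11174379, plus strand) encodes a nuclear cofactor that promotes p53 phosphorylation and also acts in autophagy. WT samples had a lowest value of 21.9, a median of 24.0 and a highest value of 30.3 TPM. In HM these were 3.73, 4.58 and 12.2 TPM, so every HM sample was below every WT sample. The log2 fold change of HM against WT was -1.91 (SE 0.26, adjusted p = 8.37e-05), a ratio of means of 0.262. In HetKO, 4 samples lay between 19.7 and 24.3 TPM, around the lower edge of WT, whereas replicates 2 and 5 stood at 2.87 and 3.26 TPM, below all HM samples. The HetKO mean therefore describes no sample (15.3 ± 9.59 TPM), and neither HetKO against WT (-1.04, SE 0.47, adjusted p = 0.166) nor HM against HetKO (-0.87, SE 0.52, adjusted p = 0.21) passed. Without replicates 2 and 5, HM lay below HetKO by -1.69 (adjusted p = 0.0015). HM replicates 1 and 4, an alike pair, held the highest HM values, 12.2 and 10.8 TPM.

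Aen (ENSMUSG00000030609.18, chr7:78895854-78911209, plus strand) encodes an apoptosis-enhancing nuclease. It ranged from 29.6 to 36.0 TPM in WT (median 33.1), from 30.1 to 46.4 TPM in HetKO (median 31.9) and from 41.4 to 78.2 TPM in HM (median 48.0). HM samples were all above WT and overlapped only with HetKO replicates 2 and 5, at 43.4 and 46.4 TPM. Aen rose by 0.70 in HM against WT (SE 0.15, adjusted p = 0.00225), and by 0.60 against HetKO (SE 0.18, adjusted p = 0.0207). HetKO against WT did not pass (0.09, SE 0.12, adjusted p = 0.621). HM replicates 5 and 6 reached 78.2 and 74.6 TPM, against 41.4 to 51.1 TPM in the other 4.

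Phlda3 (ENSMUSG00000041801.5, chr1:135766119-135769136, plus strand) encodes an inhibitor of the survival kinase Akt. It ran from 1.8 to 5.69 TPM in WT, from 1.97 to 3.83 TPM in HetKO and from 1.73 to 2.93 TPM in HM. The lines overlapped and no comparison passed, with -0.30 (SE 0.20, adjusted p = 0.243) for HM against WT. In WT the alike pair of replicates 1 and 4 gave the highest values, 5.13 and 5.69 TPM.

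Sesn1 (ENSMUSG00000038332.13, chr10:41809935-41908424, plus strand) encodes sestrin 1, a stress protein that restrains the growth kinase mTORC1. Its lowest, median and highest values were 28.9, 37.9 and 39.6 TPM in WT and 13.5, 17.6 and 23.2 TPM in HM, without overlap. HetKO replicates 2 and 5, at 18.2 and 19.4 TPM, lay in the HM range, and the other 4, from 37.2 to 41.1 TPM, lay in the upper part of the WT range or above it. HM was lower than WT by -0.97 (SE 0.14, adjusted p = 0.000124, ratio of means 0.503) and lower than HetKO by -0.78 (SE 0.22, adjusted p = 0.0178). HetKO against WT did not pass (-0.18, SE 0.21, adjusted p = 0.586). An unnamed transcript on the same strand within Sesn1, 9930024M15Rik, was at most 0.33 TPM.

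Zmat3 (ENSMUSG00000027663.12, chr3:32334792-32366014, minus strand) encodes an RNA-binding zinc finger protein that acts in splicing. Its samples lay close together within lines, at 17.6 ± 1.29 TPM in WT, 17.8 ± 1.06 TPM in HetKO and 13.7 ± 1.58 TPM in HM. The highest HM sample (15.4 TPM) was below the lowest WT (16.0 TPM) and HetKO (15.9 TPM) samples. HM fell by -0.34 against WT (SE 0.08, adjusted p = 0.00408) and by -0.36 against HetKO (SE 0.09, adjusted p = 0.00698). With samples centred on their median neither call was kept (-0.16, adjusted p = 0.144, against WT, and adjusted p = 0.0583 against HetKO), so the fall of Zmat3 depends on the scale set between samples. Zmat3 was the only 1 of the 9 genes tested whose HM and HetKO values did not overlap, where 15.5% of genes tested did not overlap.

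When the means of alike pairs were taken as 3 replicates a line, Trp53, Mdm4, Trp53inp1 and Sesn1 were still called lower in HM than in WT (adjusted p between 0.014 and 0.0323), where 24.3% of genes were called and the limit on Trp53 holds as before. Zmat3 (adjusted p = 0.0842) and Aen (adjusted p = 0.0509) were not. None of the 10 was called in HetKO against WT and none of the 9 tested in HM against HetKO (limma), where 0.25% and 3.3% of genes were called. An unadjusted p under 0.05 was found for 2 of the 10 in HetKO against WT and for 4 of the 9 in HM against HetKO.

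**Figure D1:**
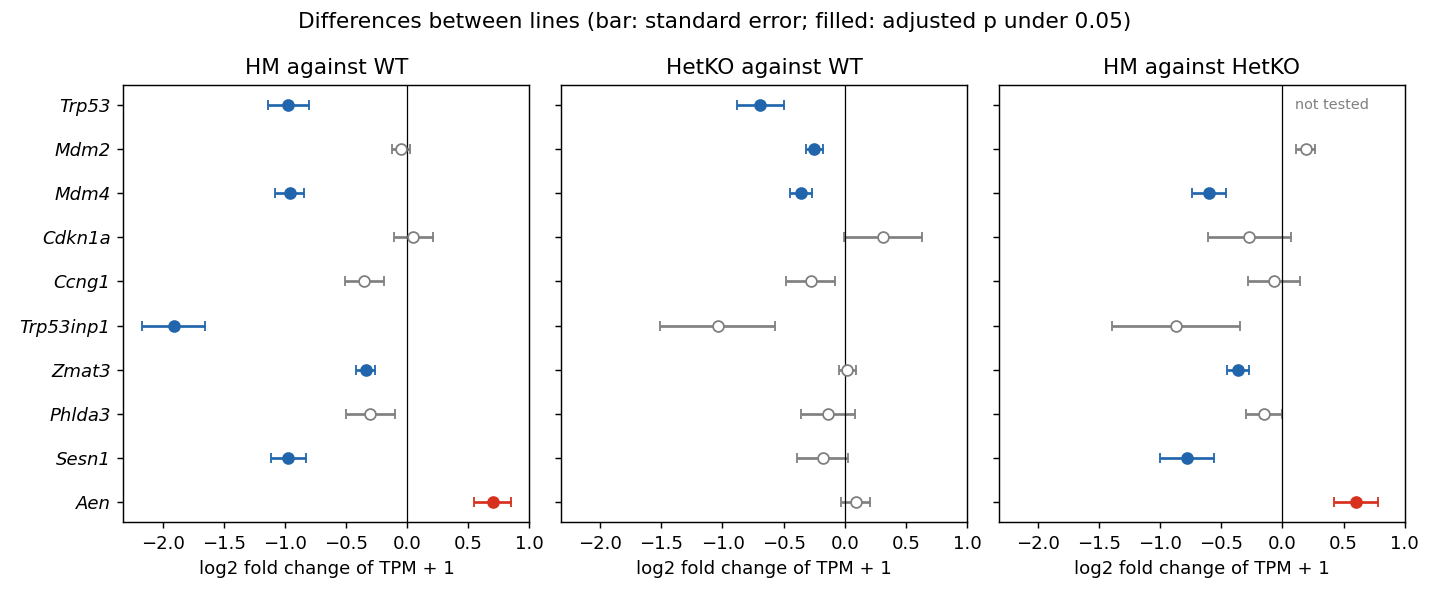
Log2 fold change of TPM + 1 for the 10 genes in the 3 comparisons, with bars for the standard error and filled points for an adjusted p under 0.05 (limma, 6 samples a line). Trp53inp1 shows the largest difference, -1.91 in HM against WT, with wide errors wherever HetKO enters, and Trp53 has no value in HM against HetKO because it was not tested.

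The HetKO samples were not alike in these genes. Replicates 2 and 5 lay below the other 4 HetKO samples for 6 of the 10 genes (Trp53, Mdm4, Ccng1, Trp53inp1, Phlda3 and Sesn1) and above them for Cdkn1a and Aen, and within their range for Mdm2 and Zmat3. That is 80.0% of the 10 genes outside the range, beside 59.2% of 13654 genes, of which 35.3% lay below and 23.9% above. T was high in the same pair, as given above, and Thy1, another of the markers, was 6.25 and 6.45 TPM in it against 24.1 to 27.1 TPM in the other 4. The part of a change in cell state in these values was not tested. Without this pair none of the 10 was called in HetKO against WT (limma, 3 at an unadjusted p under 0.05), where 7.76% of genes were called, and the sign of the difference changed for Cdkn1a (-0.21), Ccng1 (0.02), Phlda3 (0.05), Sesn1 (0.16) and Aen (-0.08). Against the remaining 4 HetKO samples, HM was lower for Mdm4 (-0.70, adjusted p = 0.00373), Sesn1 (-1.12, adjusted p = 0.00021), Zmat3 (-0.38, adjusted p = 0.00683), Trp53inp1 and Phlda3 (-0.34, adjusted p = 0.0469) and higher for Aen (0.78, adjusted p = 0.00559). These are 6 of the 9 tested, where 46.8% of genes were called. Replicates 2 and 5 were left out because these same data showed them apart. The 4 that remain are alike pairs themselves (1 and 4, 3 and 6), so they may count for fewer than 4 separate samples. In WT the pair of replicates 1 and 4 stood apart as well, below the other 4 for Mdm2, Trp53inp1 and Sesn1 and above them for Mdm4, Cdkn1a, Ccng1, Phlda3 and Aen, where 32.8% and 19.3% of 14170 genes lay below and above. WT Sesn1 was 29.1 and 28.9 TPM in that pair against 37.5 to 39.6 TPM in the others. In HM, replicates 2 and 3 held the lowest Trp53 (0.19 and 0.1 TPM) and Ccng1 (11.9 and 11.2 TPM) of that line and the highest Cdkn1a (3.02 and 2.76 TPM).

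**Figure D2:**
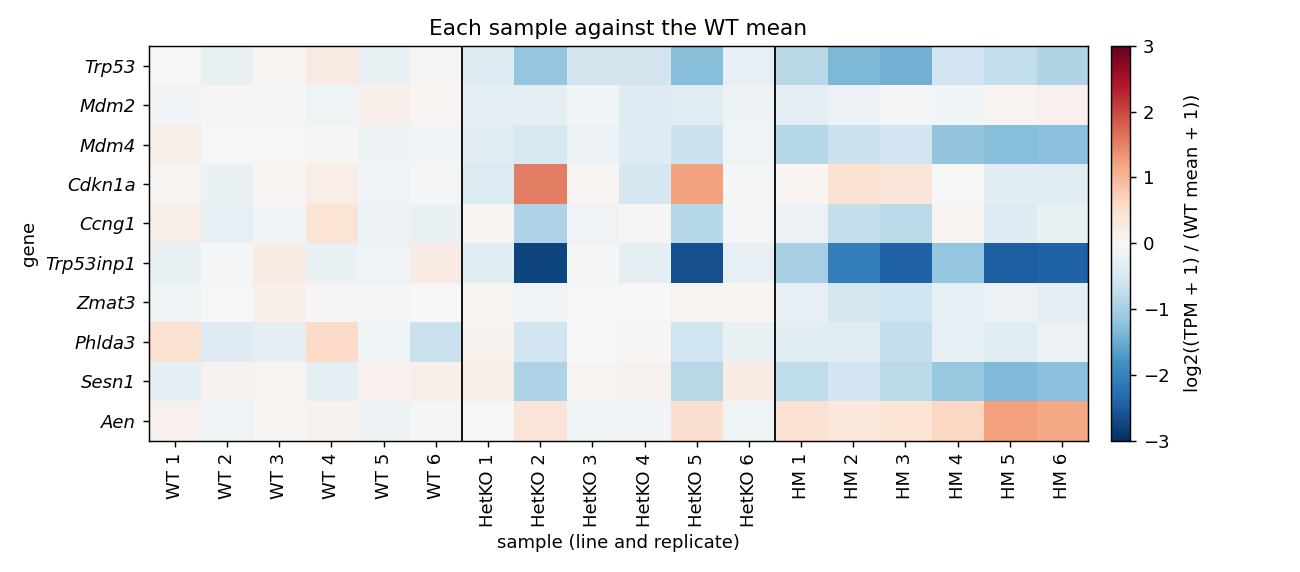
Log2 ratio of TPM + 1 in each of the 18 samples to the WT mean of the same gene, in colour, with samples in columns by line and replicate. The columns of HetKO replicates 2 and 5 differ from the other HetKO columns, with Cdkn1a high and Trp53inp1 at 2.87 and 3.26 TPM, whereas in HM low Trp53inp1, Mdm4 and Sesn1 and high Aen run through all 6 columns.

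The likeness of patterns over the 18 samples was measured as the root mean square difference of z-scored log2(TPM + 1), in which 0 is an equal shape, among 10338 genes averaging 5 TPM or more. The points share lines and alike pairs, so this is a description. Closest to Trp53 were Apobec3 (0.284), a restriction factor against retroviruses, Wdr48 (0.303), a cofactor of deubiquitinases, and Pnpla7 (0.343), a lysophospholipase, where the median gene was at 1.3. Apobec3 fell from 14.1 ± 2.71 TPM in WT to 4.81 ± 3.54 TPM in HetKO and 1.41 ± 0.774 TPM in HM. Of the other 9 genes, Trp53inp1 (0.49) and Ccng1 (0.567) were nearest to Trp53, and Aen (1.69) and Cdkn1a (1.68) farthest. Closest to Cdkn1a were Igdcc3 (0.434), Orai1 (0.458), a calcium channel subunit, and Axin2 (0.462), a feedback inhibitor and target of Wnt signalling, all farther than the 3 nearest to Trp53. Axin2 was 31.3 and 28.1 TPM in HetKO replicates 2 and 5 against 4.83 to 12.8 TPM in the other HetKO samples.

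Because the hotspot mutation changes which strands of miRNA hairpins are made, the 3′ UTRs of the 10 genes were read for seed matches of 10 mature miRNAs, 6 of them 5p strands and 4 passenger 3p strands named in the study. Other 5p strands were not searched, nor were other passenger strands, such as miR-26a-2-3p and miR-30a-3p. The mature sequences below, from RefSeq, have the seed (bases 2 to 8) in capitals, first the 5p strands with sites in Cdkn1a and Sesn1 and then 3p passenger strands with sites in Mdm4, Trp53inp1 and Aen. miR-17-5p and miR-20b-5p share a seed, as do miR-15b-5p and miR-16-5p, and so do miR-17-3p and miR-20b-3p. The abundance of these miRNAs was not analysed here.
miR-17-5p: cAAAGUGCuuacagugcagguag
miR-20b-5p: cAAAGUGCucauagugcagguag
miR-15b-5p: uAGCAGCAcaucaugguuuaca
miR-16-5p: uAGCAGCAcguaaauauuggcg
miR-17-3p: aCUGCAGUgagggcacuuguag
miR-20b-3p: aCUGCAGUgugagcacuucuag
miR-7a-1-3p: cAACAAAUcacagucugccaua
miR-15b-3p: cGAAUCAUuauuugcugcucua

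Over 12034 genes, 45.1% held a site of 7 bases for 1 of these 5p strands and 35.5% a site for 1 of these passenger 3p strands, with a median 3′ UTR of 1189 bases. Counts per gene are therefore set beside those of genes with 3′ UTRs of like length. Cdkn1a (1334 bases) held 2 sites for 5p strands, beside a mean of 0.752, and none for passenger strands. Sesn1 (1066 bases) also held 2, beside 0.545. Trp53inp1 (4420 bases) held 3 sites for 5p strands, beside 2.22, and 6 for passenger strands, beside 1.45, of which 5 were for miR-7a-1-3p. Mdm4 (5436 bases) held none for 5p strands, where 88.9% of genes of like length held at least 1, and 2 for passenger strands, beside 1.95. Aen (3793 bases) likewise held none for 5p strands, where 84.9% held at least 1, and 2 for passenger strands, beside 1.33. Both may hold sites for 5p strands that were not searched. Of these 2 genes, Aen rose and Mdm4 fell in HM, and a part of miRNAs in this was not tested. Sites are shown on the strand of the gene with GRCm38 coordinates, the bases that pair with the seed in capitals.
Cdkn1a, miR-17-5p and miR-20b-5p, chr17:29099818-29099846: agacctgaataGCACTTTggaaaaatgag
Cdkn1a, miR-15b-5p and miR-16-5p, chr17:29100078-29100106: atctggtgatcTGCTGCTcttttccccca
Sesn1, miR-15b-5p and miR-16-5p, chr10:41907741-41907769: gtggcgctcggTGCTGCTgtgcggggatg
Mdm4, miR-17-3p and miR-20b-3p, chr1:132989329-132989357: gtattgaaaatACTGCAGctcctgttggg
Mdm4, miR-7a-1-3p, chr1:132987348-132987376: acgagcatttaATTTGTTacctaaaggtg
Trp53inp1, miR-17-3p and miR-20b-3p, chr4:11172895-11172923: ttttacttgccACTGCAGaaagttcaaaa
Trp53inp1, miR-7a-1-3p, chr4:11170646-11170674: tggccaaaagcATTTGTTtcatatgcaga
Aen, miR-15b-3p, chr7:78907531-78907559: ctgtgtacgttATGATTCataactagcaa
The remaining genes held 1 (Trp53, Mdm2 and Phlda3), 2 (Ccng1) or 5 (Zmat3) sites for 5p strands, and 1 (Ccng1) or 2 (Zmat3) for passenger strands. Whether any site is used was not tested.

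The wider p53 network was read from 3 lists. Of 37 other p53 targets, 30 could be tested in HM against WT: 5 rose, 13 fell and 12 did not pass, with a median log2 fold change of -0.23 beside -0.09 over all genes. That is 18 of 30 called, where 51.4% of all genes tested were called, 32.0% as lower and 19.4% as higher. HetKO against WT had 1 that rose and 3 that fell of 29, where 10.2% of all genes were called, with a median of -0.12 beside -0.03. In HM against HetKO 6 rose and 7 fell of 30, where 34.6% of all genes were called, with a median of -0.14 beside -0.05. Among these calls, Sfn and Plk2 (2.11 TPM in HM, 0.65 TPM in HetKO) passed the filter only through HM and Pmaip1 only through HetKO. They had to differ, so their calls add nothing to the count. The same holds for Pmaip1, which passed only through WT, in HM against WT. Without HetKO replicates 2 and 5, 2 fell in HetKO against WT, and 7 rose and 13 fell in HM against HetKO, where 7.76% and 46.8% of all genes were called. Centring the samples moves all genes alike, and the list lay 0.13, 0.09 and 0.09 below all genes with and without it. With quantile normalization, which can move this distance, the list lay 0.09, 0.1 and 0.06 below all genes in the same order.

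Within this list, Pmaip1, which encodes the BH3-only death factor Noxa, was close to 0 in HM. It was 2.39 to 5.75 TPM in WT, 3.41 to 12.2 TPM in HetKO and between 0 and 0.13 TPM in HM, where 2 samples were listed at 0. The differences were -2.28 against WT (SE 0.18, adjusted p = 2.67e-06) and -2.83 against HetKO (adjusted p = 8.14e-06), both understated by the added 1 TPM. Pmaip1 passed the filter only through WT or HetKO, where it is high, so it had to differ. Steap3, a metalloreductase, fell from 22.3 to 5.93 TPM in HM against WT (-1.72, SE 0.26, adjusted p = 0.000174), and Ephx1, an epoxide hydrolase, from 9.24 to 3.2 TPM (-1.32, SE 0.2, adjusted p = 0.000217). Of the other targets, Pml, the scaffold of nuclear bodies, moved in opposite directions in the edited lines. It was 45.6 TPM in WT, 25.5 TPM in HetKO (-0.78, SE 0.16, adjusted p = 0.00836) and 82.3 TPM in HM (0.86 against WT, adjusted p = 0.000917, and 1.64 against HetKO, adjusted p = 1.68e-06). Plk3, a stress kinase, fell in HetKO against WT from 4.55 to 2.68 TPM (-0.61, adjusted p = 0.017) and Pidd1, a death domain adaptor, from 8.15 to 5.21 TPM (-0.56, adjusted p = 0.0026). Sfn, a 14-3-3 protein, was 0.133 TPM in HetKO and 2.21 TPM in HM (1.37, SE 0.27, adjusted p = 0.00235), and it passed the filter only through HM. Plk3 was no longer called without HetKO replicates 2 and 5 (-0.47, adjusted p = 0.057), while Pml in HetKO against WT (-0.72, adjusted p = 0.041) and Pidd1 (-0.53, adjusted p = 0.00856) were. The 2 most abundant targets, Rps27l (396 TPM in WT and 454 TPM in HM) and Bax (181 and 182 TPM), showed 0.21 (adjusted p = 0.0402) and 0.01 (adjusted p = 0.936) in HM against WT.

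Of 23 regulators of p53, 22 were tested. In HM against WT 5 rose, 6 fell and 11 did not pass, which is 11 of 22 called where 51.4% of all genes were. Their median was -0.04, 0.06 above that of all genes with and without centring, which moves all genes alike. With quantile normalization this difference was 0.0. The split depended on the scale set between samples. With samples centred 10 rose and 2 fell, where 7387 of 14043 genes were called, 61.0% of them as higher. HetKO against WT had 3 that fell and none that rose, and HM against HetKO 7 that rose and 2 that fell, where 10.2% and 34.6% of all genes were called. Without HetKO replicates 2 and 5 the last became 5 that rose and 4 that fell, where 46.8% of all genes were called. Atr, the kinase that signals replication stress to p53, was 31.6 TPM in WT, 30.3 TPM in HetKO and 14.6 TPM in HM (-1.09 against WT, SE 0.13, adjusted p = 3.29e-05, and -1.01 against HetKO, adjusted p = 0.000974). Trim24, a ubiquitin ligase for p53, fell from 65.6 to 42.7 TPM in HM against WT (-0.65, SE 0.15, adjusted p = 0.00314). Hipk2, a kinase that phosphorylates p53, rose from 5.76 to 10.2 TPM (0.68, SE 0.18, adjusted p = 0.00711). Cdkn2a, whose locus encodes the Mdm2 inhibitor p19Arf as well as p16, was 3.05 to 10.9 TPM in WT, 0.88 to 1.91 TPM in HetKO and 4.19 to 7.4 TPM in HM. It fell in HetKO against WT (-1.60, SE 0.24, adjusted p = 0.00108) and was higher in HM than in HetKO (1.36, adjusted p = 5.36e-05), and gene-level TPM does not separate its products. Sirt1, a p53 deacetylase, was also lowest in HetKO, at 35.3 TPM in WT, 26.4 TPM in HetKO and 44.9 TPM in HM (-0.41 in HetKO against WT, adjusted p = 0.000309, and 0.72 in HM against HetKO, adjusted p = 0.00098). The p53 acetylase Ep300 was 58.3, 47.2 and 58.2 TPM (-0.30 in HetKO against WT, adjusted p = 0.0179), a call lost without HetKO replicates 2 and 5 (-0.25, adjusted p = 0.061), whereas the calls of Cdkn2a and Sirt1 held in both comparisons with HetKO. Npm1, Rpl5 and Rpl11, the most abundant of this list, were not called in any comparison.

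Active p53 also lowers cell cycle genes through the DREAM repressor complex. Of 20 such genes, 2 rose, 12 fell and 6 did not pass in HM against WT, where 51.4% of all genes were called, 32.0% as lower. Their median was -0.18, 0.09 below that of all genes with and without centring, and 0.29 below it with quantile normalization. With samples centred 3 rose and 6 fell, where 7387 of 14043 genes were called. HetKO against WT had 3 that fell and none that rose, and HM against HetKO 4 that rose and 4 that fell, where 10.2% and 34.6% of all genes were called. Without HetKO replicates 2 and 5 the last became 4 that rose and 9 that fell, where 46.8% of all genes were called. E2f1, the transcription factor that drives S phase entry, was 29.0 TPM in WT, 29.6 TPM in HetKO and 15.5 TPM in HM (-0.86 against WT, SE 0.13, adjusted p = 0.000187). Cdc25c, a mitotic phosphatase, fell from 27.0 to 16.8 TPM (-0.67, adjusted p = 0.000101), and the centromeric histone Cenpa from 302 to 195 TPM (-0.63, adjusted p = 3.61e-05). Birc5, which encodes survivin, rose from 251 to 303 TPM (0.27, adjusted p = 0.000417). Mybl2, a transcription factor of the cell cycle, was 72.9 TPM in WT, 48.4 TPM in HetKO and 88.1 TPM in HM (-0.58 in HetKO against WT, adjusted p = 0.00185, and 0.78 in HM against HetKO, adjusted p = 0.0132). Top2a fell in HetKO against WT (-0.29, adjusted p = 0.0209), as did Aurka (-0.24, adjusted p = 0.025). With HetKO replicates 2 and 5 left out, Top2a (-0.18, adjusted p = 0.0101) and Mybl2 (-0.50, adjusted p = 0.00922) were still called in that comparison and Aurka was not (-0.20, adjusted p = 0.075). Cdk1 was not called in any comparison.

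**Figure D3:**
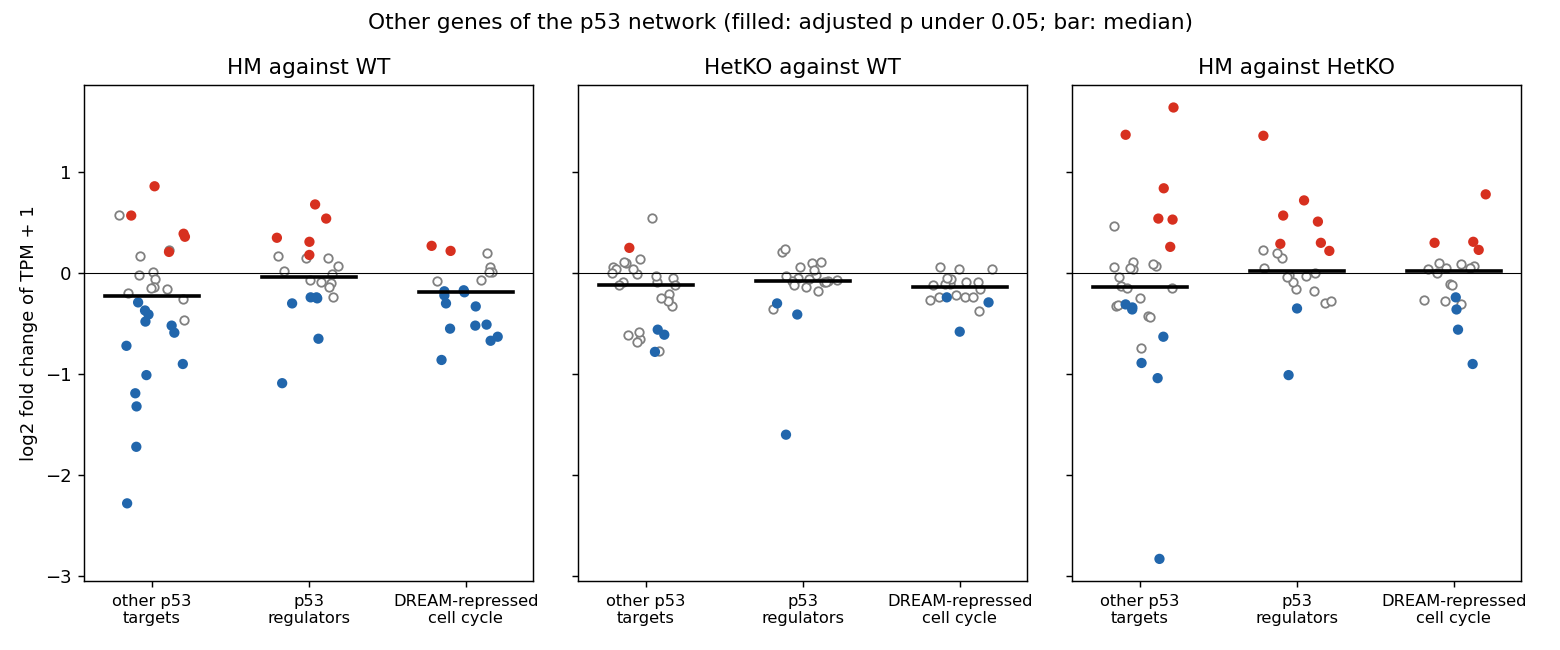
Log2 fold change of TPM + 1 for each tested gene of the 3 further lists in the 3 comparisons, filled where the adjusted p was under 0.05 (limma), with a bar at the median of the list. Medians lie between -0.23 and 0.03, and the lowest points are Pmaip1 at -2.28 in HM against WT and -2.83 in HM against HetKO.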

How the data were processed

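Gene expression was measured by stranded, paired-end mRNA-seq in 18 samples, 6 of each line. The authors merged read pairs and quantified genes with RSEM, and deposited the result as TPM for 55450 genes. The submitters' processing notes name cutadapt, STAR and mm10, with their versions and the annotation not given in the sources used here. TPM keeps no depth, so no interval or detection limit could be set and precision was taken from the spread between samples. Sums per sample were between 999999 and 1000000. All 55450 gene identifiers matched GENCODE vM21 (GRCm38), which gave positions and 3′ UTRs, and 0 sample columns were left unused.

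For each comparison, log2(TPM + 1) of its 12 samples was fitted with limma 3.58.1 (mean-variance trend, R 4.3.3) for every gene averaging 1 TPM or more, and p-values were adjusted by Benjamini-Hochberg over all genes tested, with a threshold of 0.05. Fold changes are on this scale and understate changes of low genes. Other steps used Python 3.11.15, numpy 2.4.6, pandas 2.3.3 and matplotlib 3.10.9. The procedure was tested on simulated data.

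The 10 genes and the lists were chosen with earlier results of these data known, and the lists give no independent support. Named besides the 10 were, from each list, the 3 called genes with the largest change in each comparison and the 3 with the highest mean TPM, and the 3 genes most like Trp53 and Cdkn1a. Alternatives were a pseudocount of 0.1, no filter, a filter of 5 TPM, samples centred or quantile normalized, a single fit of all lines, an unequal-variance test, the replicate number as a block, means of alike pairs, and HetKO without replicates 2 and 5. Alike pairs were found from genes averaging 200 TPM or more. The miRNA data of the study were not analysed here.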

Additional observations from a re-analysis of the deposited data

How the results depend on the processing

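No called value of the 10 genes turned direction under these alternatives. Of 272 values, 242 kept their side of the threshold, 24 lost the call and 6 gained it, and 10 that did not pass changed sign. Means of alike pairs as replicates moved most counts: 3414, 35 and 454 genes were called in HM against WT, HetKO against WT and HM against HetKO, in place of 7220, 1421 and 4765. With them 4 of the 10 genes were called in HM against WT, 0 of 10 in HetKO against WT and 0 of the 9 tested in HM against HetKO. Over the same comparisons they left 11, 0 and 3 other p53 targets (18, 4 and 13 before), 2, 0 and 1 regulators (11, 3 and 9 before) and 8, 0 and 1 DREAM-repressed genes (14, 3 and 8 before). In these counts of 0 by limma, an unadjusted p under 0.05 was found for 3 genes of each list, and for 2 of the 10 genes and 4 of the 9 tested. The unequal-variance test called 852 genes, 1 of the 10 and 1 DREAM-repressed gene in HetKO against WT. Without HetKO replicates 2 and 5, HetKO against WT gave 0 of the 10 (3 at an unadjusted p under 0.05) and 2 other targets, and HM against HetKO gave 20 other targets and 13 DREAM-repressed genes. Over all genes, 7.76% and 46.8% were called in these 2 fits. Centring left 9 DREAM-repressed genes in HM against WT and turned Aurka from -0.17 to 0.01 (adjusted p = 0.938), quantile normalization gave 5 in HetKO against WT, and a filter of 5 TPM left 8 other targets in HM against HetKO. Over all genes, these fits called 7387 of 14043, 1515 of 13999 and 3907 of 10229. The cause was not tested.

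In HM against WT, 37.7% of called genes were higher, 61.0% with centring and 51.1% with quantile normalization. In HetKO against WT these shares were 36.5%, 50.7% and 48.1%, and in HM against HetKO 40.4%, 60.9% and 49.3%.

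Trp53 lost its call in HetKO against WT with a pseudocount of 0.1 (-1.24, adjusted p = 0.0594), with no filter (adjusted p = 0.0586), with quantile normalization (0.0518) and with the unequal-variance test (0.0849). Trp53 in HM against HetKO had an adjusted p of 0.426 with no filter.

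The labels number the samples 1 to 6 in each line, but no source says that a number was shared between lines, and the correlation of same-numbered samples was not over 0.1 in every pair of any comparison. It had a mean of 0.00512 in HM against WT (-0.0738 to 0.109), 0.0621 in HetKO against WT (0.0246 to 0.116) and 0.0206 in HM against HetKO (-0.167 to 0.169), and 2, 7 and 2 of 12 samples were closest to their own number. In HetKO against WT all 6 were above 0, and the alike pairs carried the same numbers in both lines, which is a hint from the data and not the design. With the replicate number as a block, 6889, 1206 and 4200 genes were called. Ccng1 passed in HM against WT (-0.35, adjusted p = 0.0216) and Mdm2 did not in HetKO against WT (adjusted p = 0.063).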
